A study of Mus musculus with 8 samples.

Results

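Immunoglobulin light chain variable (V) segments were described in mouse mammary glands, chosen by their symbol, which starts with Igkv (kappa) or Iglv (lambda), and by a sum of at least 80 counts over the 8 libraries. The rule kept 82 genes, 79 kappa and 3 lambda, of the 163 V genes in the table. The glands came from female C57BL/6 mice and had been injected with small extracellular vesicles (sEVs) 6 weeks earlier. The vesicles had been collected from the mouse breast adenocarcinoma line AT3, which metastasizes, grown in normoxia (sEV-NORM, 3 glands) or in hypoxia (sEV-HYP, 2 glands), or were a preparation from medium that had not been conditioned by cells (sEV-CTRL, 3 glands). In the labels these groups are called normoxia exosomes, hypoxia exosomes and control. All 8 libraries were made from polyadenylated RNA of whole gland tissue, so that no cell type was sorted, and only 1 tumor line supplied the vesicles.

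Each developing B cell joins 1 V segment to 1 joining (J) segment in its kappa or lambda locus, and the joined exon is spliced to a constant exon, Igkc or an Iglc gene, to make the light chain of its antibody. The descendants of a B cell keep that joined exon, so a clone that has expanded, or that has become antibody-secreting plasma cells with abundant immunoglobulin RNA, carries a single V segment. In mice kappa chains are far more common than lambda chains, and the mammary fat pad can hold a lymph node beside the resident plasma cells of the gland. In RNA from whole glands, fewer B lineage cells and less immunoglobulin RNA per cell cannot be told apart.

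Total counts per library were 18194996 to 24622569, and the 82 segments together held 0.0378% to 0.299% of them. The 15 B cell markers checked (such as Ms4a1) had counts in these libraries, with a summed level of 1941 to 3576 CPM, counts rescaled for the size of each library, in sEV-CTRL, 1943 to 4107 in sEV-NORM and 1444 to 2669 in sEV-HYP glands. The recombinase genes that join V to J segments in developing B cells were near 0, with at most 0.621 CPM for Rag1 and 0.164 CPM for Rag2 in any library. The 10 skeletal muscle markers summed to 636, 8049 and 2272 CPM in the sEV-CTRL glands, 2783, 10.3 and 1334 CPM in the sEV-NORM glands, and 4314 and 11998 CPM in the sEV-HYP glands, so that sEV-NORM gland 2 was the lowest library and sEV-HYP gland 2 the highest.

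The segments that led the libraries are shown by the last 60 coding bases of their germline V exon, because these bases hold the codon of the conserved cysteine and the V part of the hypervariable loop that follows it, in which light chains differ most. Sequences are those of the GENCODE M21 transcripts on GRCm38, read 5′ to 3′ on the coding strand, and capitals run from the cysteine codon to the end of the segment. The V exons are on chromosome 6, at chr6:68631963-68632260 for Igkv10-96, chr6:69900424-69900721 for Igkv5-39 and chr6:70260409-70260706 for Igkv6-23 on the minus strand. Those of Igkv14-126 (chr6:67896345-67896642), Igkv1-117 (chr6:68121515-68121827), Igkv1-110 (chr6:68270955-68271267), Igkv17-121 (chr6:68037021-68037318) and Igkv2-112 (chr6:68220395-68220706) are on the plus strand.
Igkv10-96: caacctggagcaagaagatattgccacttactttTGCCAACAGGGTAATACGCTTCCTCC
Igkv5-39: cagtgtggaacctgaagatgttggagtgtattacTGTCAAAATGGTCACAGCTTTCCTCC
Igkv14-126: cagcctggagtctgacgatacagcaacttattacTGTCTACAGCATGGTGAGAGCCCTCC
Igkv6-23: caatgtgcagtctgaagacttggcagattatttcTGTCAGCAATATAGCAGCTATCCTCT
Igkv1-117: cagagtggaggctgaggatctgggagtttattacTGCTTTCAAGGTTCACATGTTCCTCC
Igkv1-110: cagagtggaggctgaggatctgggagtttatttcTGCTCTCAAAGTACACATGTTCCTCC
Igkv17-121: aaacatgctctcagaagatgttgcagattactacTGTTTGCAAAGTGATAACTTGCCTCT
Igkv2-112: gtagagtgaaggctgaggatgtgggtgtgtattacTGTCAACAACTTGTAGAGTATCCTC

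The members were very unequal in abundance. Per kilobase of transcript, which allows genes to be compared, the mean level over the 8 libraries was highest for Igkv10-96 (320 CPM per kb), followed by Igkv5-39 (253), Igkv14-126 (232), Igkv1-117 (201) and Igkv1-110 (187). Igkv2-112, the twelfth in this order, had 102 CPM per kb, but almost all of it came from 1 gland, as described later. All 82 members were annotated as V genes and none as a pseudogene, with transcripts of 338 to 501 bases. Of the 81 V genes under the limit, 60 were annotated pseudogenes, and 36, of which 35 were pseudogenes, had no count in any library. The members held 99.6% of all V counts. Just inside the limit were Igkv8-18 (113 counts), Igkv4-54 (108) and Igkv14-130 (92), and just outside were Igkv8-34 (71), Igkv4-90 (66) and Igkv4-92 (62). Of the 82 members, 4 passed only through their highest library: without it, Igkv3-3 had 37 counts, Igkv8-18 51, Igkv4-54 25 and Igkv14-130 66.

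Families, the groups of related segments given by the first number of the symbol, were used unevenly. The 7 members of family Igkv1 held 17.6% of the V counts, the 3 of Igkv10 held 13.3%, the 5 of Igkv5 held 11.6% and the 4 of Igkv14 held 10.1%. Igkv4, the family with the most genes in the table (33), placed 16 genes among the members but only 4.14% of the counts. Families were not used alike in every gland. Igkv1 took 11.0% to 19.0% of the V counts in 7 libraries and 34.3% in sEV-HYP gland 1, and Igkv2 took 10.6% in sEV-CTRL gland 1 and 0.591% to 5.37% elsewhere.

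The kappa members lie on chromosome 6 between 67555497 and 70704177 (GRCm38), on both strands, and Igkc lies at 70726435 to 70726966 on the plus strand. Both orientations held similar totals, with 50.4% of the kappa counts in 33 plus-strand segments and 49.6% in 46 minus-strand segments. The median level of a segment was 16.8 CPM per kb on the plus strand and 10.9 CPM per kb on the minus strand. Along the locus, counts were concentrated far from the constant gene. The 27 members farthest from Igkc, from 1957 to 3170 kb, held 60.7% of the kappa counts, with 51.7% to 66.9% in single libraries. The 26 nearest members held 16.6% and the 26 between them 22.6%. The plot of level against distance shows that this zone holds Igkv10-96, Igkv1-110, Igkv1-117, Igkv17-121 and Igkv14-126, and that weakly used segments lie among them.

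**Figure D1:**
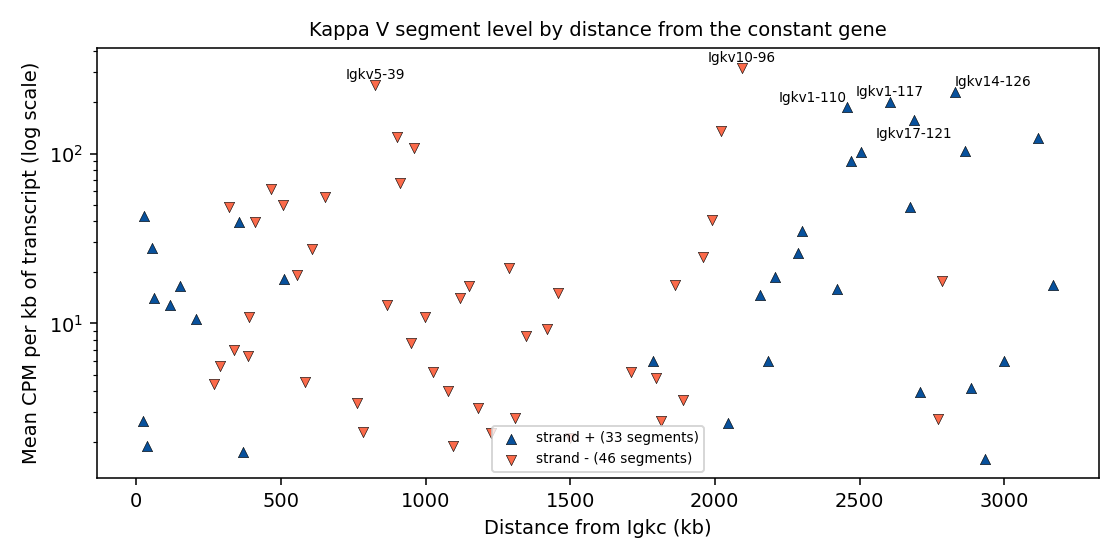
Mean CPM per kb of transcript over the 8 libraries (log scale) of the 79 kappa V segments, against distance from Igkc in kb, with upward triangles for plus-strand and downward triangles for minus-strand segments. The 6 highest segments, all but Igkv5-39 (825 kb), lie 2094 to 2830 kb from Igkc.

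The 3 lambda segments, on chromosome 16, held a small share of the V counts in every gland. Together they held 2.96% (95% Wilson interval 2.77 to 3.16) of the V counts in sEV-HYP gland 1 and 6.08% (5.72 to 6.46) in sEV-NORM gland 1, the lowest and the highest of the 8 libraries. Iglv1 had 64.0, 7.93 and 14.8 CPM in the sEV-CTRL glands, 14.9, 47.2 and 20.0 CPM in the sEV-NORM glands, and 18.8 and 9.53 CPM in the sEV-HYP glands. Iglv3 had 34.5, 10.9 and 16.2 CPM, then 18.7, 31.1 and 20.9 CPM, then 18.6 and 7.39 CPM, in the same order. The ranges of the groups overlapped for Iglv1, while for Iglv3 both sEV-HYP glands lay below all sEV-NORM glands, one of them by little, and neither segment was called in any comparison described later. In both segments sEV-CTRL gland 1 was the highest library. Lambda constant genes held a larger part of the light chain constant counts than lambda V segments held of the V counts, from 7.09% in sEV-CTRL gland 1 to 16.4% in sEV-NORM gland 1. Iglv1 and Iglv2 are 96.9% identical in coding sequence, and Iglc2 and Iglc3 94.3%, so the division of reads within each pair is uncertain.

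The glands did not share a single leading segment. Igkv1-110 led sEV-CTRL gland 1 with 12.1% of its V counts, Igkv6-23 led sEV-CTRL gland 2 with 12.4%, and Igkv5-39 led sEV-CTRL gland 3 with 13.2%. Igkv10-96 led sEV-NORM gland 1 (10.4%), sEV-NORM gland 3 (14.1%) and sEV-HYP gland 2 (9.19%), while Igkv14-126 led sEV-NORM gland 2 (14.6%). The leader of sEV-HYP gland 1, Igkv1-117, held 25.1% of that library's V counts (95% Wilson interval 24.6 to 25.6), against 3.34% to 5.26% in the other 7 libraries. The leader was the same segment in 8 of 8 libraries when counts were divided by transcript length. Intervals cover counting error only.

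Igkv10-96 was the most evenly used of the leaders. It ranked first or second by counts in 7 libraries and seventh in sEV-CTRL gland 1, where it held 4.04% of the V counts. Igkv6-23 ranked first in sEV-CTRL gland 2 and had 54.6 CPM there, with 79.3 CPM, its highest level, in sEV-CTRL gland 1, but 4.71 CPM in sEV-CTRL gland 3, 3.94 to 24.6 CPM in sEV-NORM glands, and 5.73 and 1.39 CPM in sEV-HYP glands. A total of 24 segments were among the 10 most counted of at least 1 library, but only 2, Igkv10-96 and Igkv1-117, were among the 10 in all 8.

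**Figure D2:**
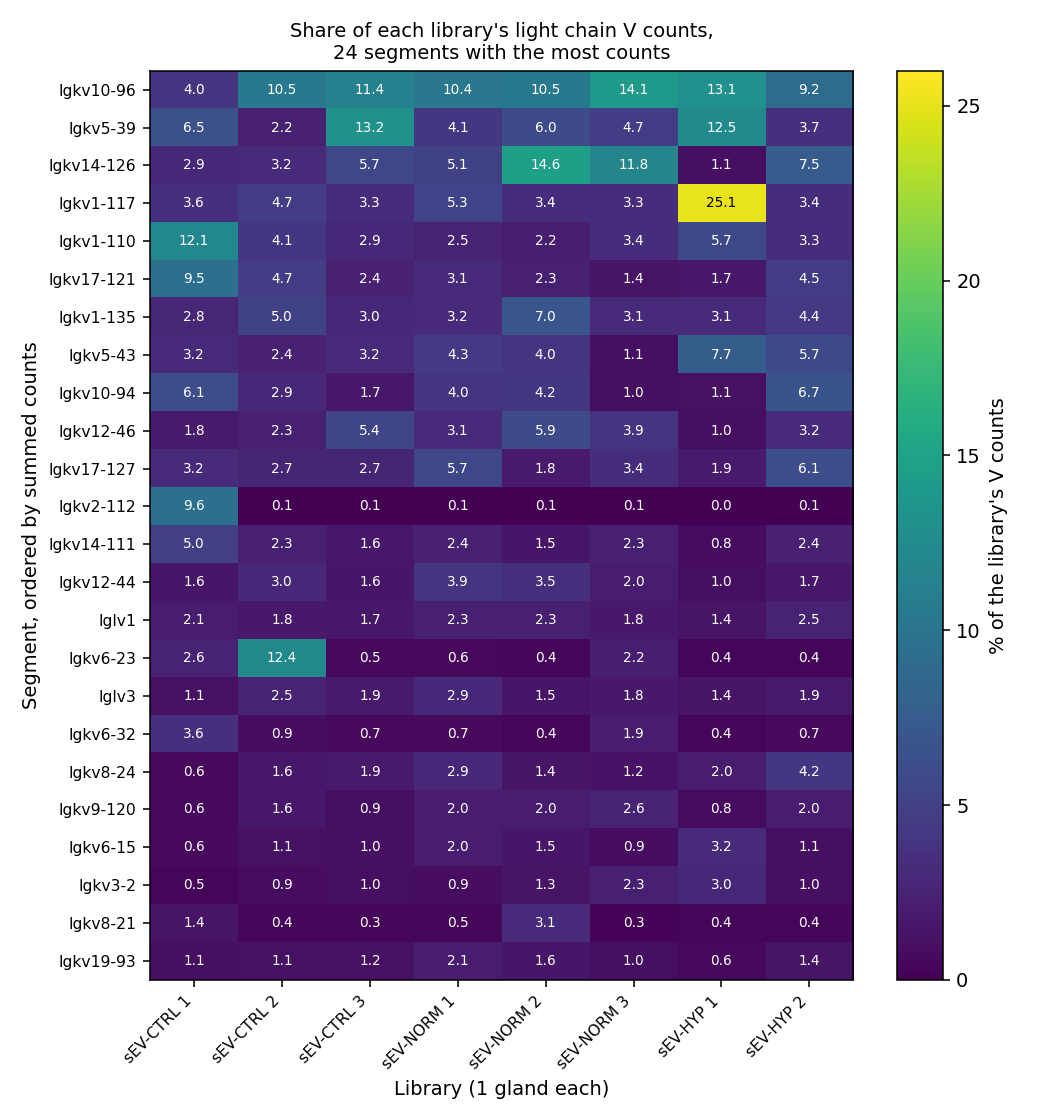
Percentage of each library's light chain V counts held by each of the 24 segments with the most summed counts (rows), in the 8 libraries (columns), on a color scale from 0 to 26%. The brightest cell is Igkv1-117 in sEV-HYP gland 1 (25.1%), and the row of Igkv2-112 is bright only in sEV-CTRL gland 1 (9.59%).

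The spread of use over segments was summarized as an effective number, the inverse Simpson index, which is the number of equally used segments that would give the same concentration. It was 18.4, 21.8 and 20.4 in the sEV-CTRL glands, 27.7, 17.9 and 19.9 in the sEV-NORM glands, and 9.05 and 24.8 in the sEV-HYP glands. The sEV-HYP pair held both the lowest value and the second highest, and their mean was 16.9 ± 11.1 (SD, n = 2), beside 20.2 ± 1.71 (SD, n = 3) for sEV-CTRL and 21.8 ± 5.18 (SD, n = 3) for sEV-NORM. The 5 leading segments of sEV-HYP gland 1 were Igkv1-117 (25.1%), Igkv10-96 (13.1%), Igkv5-39 (12.5%), Igkv5-43 (7.67%) and Igkv1-110 (5.75%), together 64.1% of its V counts. The same 5 segments held 23.9% to 34.1% in the other 7 libraries.

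Many segments owed most of their counts to a single gland. A segment was called dominated when 1 library held over 50% of its CPM summed over the 8 libraries, and 18 of the 82 members met this rule. Of the 16871 tested genes with 80 or more counts, 0.445% did. The highest library held a median of 33.0% of a member's summed CPM, beside 16.6% for all those genes. Dominance in CPM follows the total V level of a gland as well as its use of segments. The library with the highest summed V level, sEV-CTRL gland 1, was the highest for 33 of the 82 members (13.7% of those genes). The dominating library was sEV-CTRL gland 1 for 8 segments, sEV-NORM gland 2 and sEV-NORM gland 3 for 3 each, sEV-CTRL gland 3 for 2, and sEV-NORM gland 1 and sEV-HYP gland 1 for 1 each. No segment was dominated by sEV-CTRL gland 2 or sEV-HYP gland 2, the libraries with the lowest summed V level. Among the 18, Igkv4-54, Igkv3-3 and Igkv8-18 reached the limit of 80 counts only through the library that dominates them. The choice of members thus favored their dominance. Igkv4-54 was also not tested, so it is outside the 16871 genes.

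Igkv2-112 was the extreme case. It had 291 CPM in sEV-CTRL gland 1, and 0.228 and 0.602 CPM in the other sEV-CTRL glands, 0.442, 1.33 and 0.804 CPM in the sEV-NORM glands, and 0.641 and 0.482 CPM in the sEV-HYP glands. That gland held 5722 of its 5819 counts, or 98.5% of its summed CPM, and its level was 483 times the median of the other 7 libraries. All 50-base stretches of its coding sequence are its own among the annotated transcripts, and the closest other member is 83.1% identical, so no stretch of that length in it matches another annotated gene. Within sEV-CTRL gland 1 it ranked second, between Igkv1-110 (12.1%) and Igkv17-121 (9.47%), while in the other libraries it ranked 66 or lower of 82.

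Other strongly dominated segments were Igkv6-32, with 110 CPM in sEV-CTRL gland 1 and 2.73 to 22.0 CPM elsewhere (67.9% of its summed CPM), and Igkv9-129, with 7.87 CPM in that gland (67.2%). Igkv4-54 (78.6% in sEV-CTRL gland 1) and Igkv3-3 (64.6% in sEV-NORM gland 1) rest on 108 and 125 counts in all. Igkv14-100 had 32.6 CPM in sEV-NORM gland 2 and 0.856 to 6.35 CPM elsewhere (61.5%). Igkv2-137 had 41.8 CPM in sEV-CTRL gland 3 and 1.87 to 7.72 CPM elsewhere (62.0%). However, only 19.2% of its 50-base stretches are its own, and 80.8% also occur in the annotated gene Gm42889. The segments dominated by a library made up 40.3% of the V counts of sEV-CTRL gland 1, 25.1% of those of sEV-HYP gland 1, and 0.544% to 7.08% of those of sEV-CTRL gland 3 and the sEV-NORM glands.

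**Figure D3:**
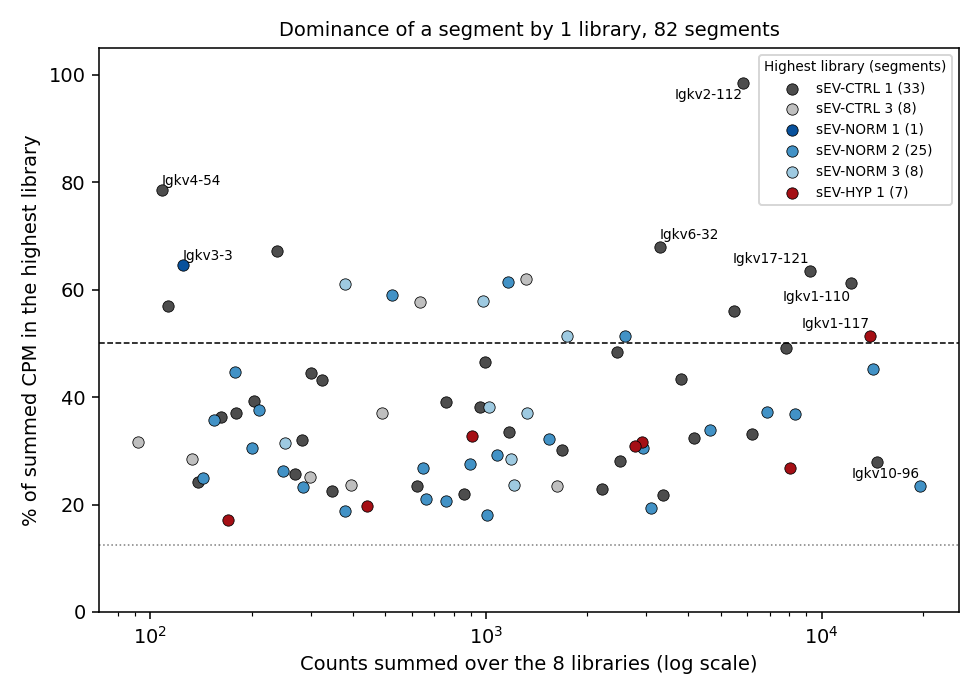
Percentage of a segment's summed CPM held by its highest library, against its counts summed over the 8 libraries (log scale), for the 82 segments, colored by the highest library, with the number of segments in the legend. The dashed line marks 50% and the dotted line 12.5%, the value of equal levels in 8 libraries. The 18 dominated segments range from 108 counts (Igkv4-54) to 13908 (Igkv1-117), and Igkv2-112 stands highest at 98.5%.

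Near-identical relatives differed in how strongly, and by which gland, they were led. Igkv1-117 and Igkv1-110 differ at 10 of 359 coding bases (97.2% identity). Igkv1-117 had 333 CPM in sEV-HYP gland 1, 13.3 CPM in sEV-HYP gland 2, 20.7 to 110 CPM in sEV-CTRL glands and 34.2 to 70.4 CPM in sEV-NORM glands, and its highest library held 51.4% of its summed CPM. Igkv1-110 had 368 CPM in sEV-CTRL gland 1, 18.2 and 24.7 CPM in the other sEV-CTRL glands, 16.1 to 44.9 CPM in sEV-NORM glands, and 76.2 and 12.7 CPM in sEV-HYP glands (61.3%). Igkv17-121 and Igkv17-127 differ at 9 of 353 bases (97.5% identity). Igkv17-121 had 287 CPM in sEV-CTRL gland 1 and 16.1 to 47.5 CPM elsewhere (63.5%), whereas Igkv17-127 had 98.2 CPM there and 11.8 to 39.0 CPM elsewhere (33.2%). The last 240 coding bases are shown, with capitals at the 9 and 4 bases that differ within the pairs there, because only such bases tell reads of a pair apart.
Igkv1-117: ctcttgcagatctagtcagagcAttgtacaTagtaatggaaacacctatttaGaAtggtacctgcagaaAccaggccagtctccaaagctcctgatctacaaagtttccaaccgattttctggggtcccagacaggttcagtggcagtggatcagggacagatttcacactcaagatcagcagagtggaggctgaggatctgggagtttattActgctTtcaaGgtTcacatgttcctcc
Igkv1-110: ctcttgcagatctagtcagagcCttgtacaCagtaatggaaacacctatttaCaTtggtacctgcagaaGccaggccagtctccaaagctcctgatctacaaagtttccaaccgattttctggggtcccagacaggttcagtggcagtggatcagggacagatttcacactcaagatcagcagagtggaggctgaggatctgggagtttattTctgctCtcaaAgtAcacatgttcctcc
Igkv17-121: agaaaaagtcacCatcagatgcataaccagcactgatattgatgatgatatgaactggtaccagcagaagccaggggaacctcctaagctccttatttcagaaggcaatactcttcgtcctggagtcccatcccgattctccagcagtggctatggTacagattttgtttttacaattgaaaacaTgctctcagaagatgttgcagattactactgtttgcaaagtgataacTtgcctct
Igkv17-127: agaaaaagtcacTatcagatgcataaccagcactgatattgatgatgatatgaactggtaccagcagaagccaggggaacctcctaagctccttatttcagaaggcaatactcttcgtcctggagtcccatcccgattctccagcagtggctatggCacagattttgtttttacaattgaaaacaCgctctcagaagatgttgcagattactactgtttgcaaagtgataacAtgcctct

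Sequence sharing limits how firmly counts can be given to 1 segment. Of the 82 members, 35 have another member with at least 95% identity, and a median of 74.4% of a member's 50-base stretches occur in no other annotated gene. Of the 18 dominated segments, 4 have all 50-base stretches of their own and 4 have fewer than 50% of their own. The share is 56.5% for Igkv1-117, 55.8% for Igkv1-110 and 62.5% for Igkv17-121. The closest pair of all, Igkv5-43 and Igkv5-45 (98.6% identity, 5 differing bases), was used differently, with 10.5 to 102 CPM for Igkv5-43 and 0.274 to 14.0 CPM for Igkv5-45.

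The summed level of the 82 segments spread more widely within each group than the group means differed. It was 3030, 441 and 856 CPM in the sEV-CTRL glands, 651, 2047 and 1141 CPM in the sEV-NORM glands, and 1326 and 388 CPM in the sEV-HYP glands. The means were 1442 ± 1391 CPM (SD, n = 3), 1280 ± 708 CPM (SD, n = 3) and 857 ± 663 CPM (SD, n = 2), and the ranges of the groups overlapped. The highest library was 7.80 times the lowest, and 5.31 times without the 18 dominated segments, so most of this range was present without them. The glands differed less in the kappa V counts per 100 Igkc counts, which were 35.5 to 48.8 in sEV-CTRL, 44.2 to 59.3 in sEV-NORM, and 71.5 and 53.8 in sEV-HYP glands.

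The level outside the leading segments was also summed, a description chosen after the values were seen. Without each library's own 5 leading segments, the other 77 summed to 1702, 276 and 508 CPM in the sEV-CTRL glands, to 451, 1145 and 706 CPM in the sEV-NORM glands, and to 476 and 251 CPM in the sEV-HYP glands. By this sum sEV-HYP gland 1 lay below sEV-NORM gland 3 and sEV-CTRL gland 3, although on the full sum it lay above both. The segments left out were chosen by each library's own values, so the most concentrated library loses the most by construction. They held 64.1% of the V counts in sEV-HYP gland 1 and 30.8% to 44.1% in the other libraries. The change of order is therefore no separate evidence of a low level in sEV-HYP glands. Those 77 segments in sEV-HYP gland 2 were the lowest of all libraries. The same glands that were high in V segments were high in Igkc, which had 6462, 1179 and 1671 CPM in sEV-CTRL, 1332, 3296 and 2459 CPM in sEV-NORM, and 1799 and 684 CPM in sEV-HYP glands.

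**Figure D4:**
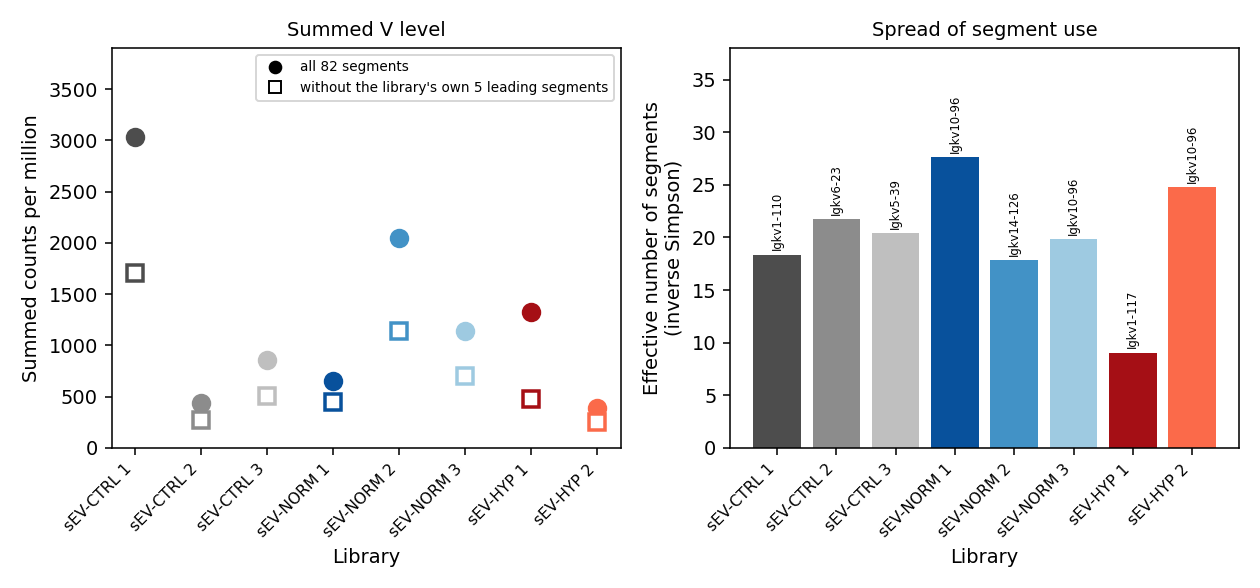
Left, summed CPM of the 82 V segments (filled circles) and of the 77 outside each library's own 5 leading segments (open squares), by library. Right, the effective number of segments (inverse Simpson index) as bars from 0, with the leading segment written above each bar. In sEV-HYP gland 1 the sum falls from 1326 to 476 CPM without the leading 5, and its effective number, 9.05, is the lowest.

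The next comparisons ask whether segments differed between the sEV groups. A gene was called at an unadjusted P under 0.05 in edgeR's two-sided quasi-likelihood test, the threshold used in the study, and the Benjamini-Hochberg adjusted P over all 17858 genes tested is also given. Of the 82 members, 81 passed the filter on low counts and were tested, and Igkv4-54 did not. The glands came from separate animals as far as the study's methods say, and with 2 sEV-HYP glands the estimate of spread leans on the other groups. Replicates spread more for the segments than for other genes, with a median biological coefficient of variation of 0.593 for the members and 0.252 for all genes tested.

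Against sEV-NORM, many segments were lower in sEV-HYP glands. In this comparison 14 of 81 members were lower at an unadjusted P under 0.05 (1.7% of all genes tested) and 0 were higher (2.25%). The median log2 fold change of the members was -1.01, beside -0.02 for all genes tested, and 70 of 81 had a fitted value below 0 (53.0% of all genes). The members share the summed V level of each gland, so these counts are not independent observations. That summed level overlapped between the groups, with 1326 and 388 CPM in sEV-HYP and 651, 2047 and 1141 CPM in sEV-NORM glands. In 29 of 81 members both sEV-HYP glands lay below all sEV-NORM glands (10.5% of all genes), and in 2 they lay above (12.3%). After adjustment edgeR called 0 members and 0 of all genes. DESeq2 called 1 member at an adjusted P under 0.05 with all 8 libraries, Igkv1-88, beside 16 of all 27208 genes it took in. Fitted on the groups compared alone, it called 9 members, beside 83 of 26293 genes.

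Iglv2, a lambda segment, had the lowest P. It had 5.95, 12.8 and 13.5 CPM in the sEV-NORM glands and 1.88 and 3.32 CPM in the sEV-HYP glands, with 7.01, 3.10 and 9.58 CPM in sEV-CTRL. Both sEV-HYP glands were below all sEV-NORM glands, and the log2 fold change was -2.05, with an SE of 0.55 (adjusted P = 1.00, edgeR). Igkv1-88 had 3.66, 4.48 and 18.7 CPM in sEV-NORM and 1.33 and 0.910 CPM in sEV-HYP glands, without overlap (log2 fold change -2.98, SE 0.87, adjusted P = 1.00 in edgeR). Its high mean in sEV-NORM rests on gland 3. Igkv9-120 had 13.3, 41.6 and 29.9 CPM in sEV-NORM and 10.2 and 7.65 CPM in sEV-HYP glands (log2 fold change -1.66, SE 0.54), and Igkv4-91 had 5.27, 22.9 and 7.19 CPM against 2.75 and 1.61 CPM (-2.43, SE 0.82). The groups did not overlap for either segment. Single glands decided both calls: Igkv4-91 was no longer called without sEV-NORM gland 2 (-1.51) or without sEV-HYP gland 2 (-2.09), nor was Igkv9-120 without sEV-HYP gland 2 (-1.48).

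Among the abundant segments, Igkv14-126 had 33.4, 300 and 135 CPM in sEV-NORM and 14.0 and 29.0 CPM in sEV-HYP glands, with 89.2, 14.1 and 48.5 CPM in sEV-CTRL (log2 fold change -2.86, SE 0.98, unadjusted P under 0.05). It was singled out because it leads sEV-NORM gland 2, a choice that by itself favors a high sEV-NORM group and a low P. Without that gland the log2 fold change of Igkv14-126 was -1.97, and without sEV-HYP gland 1 it was -2.42 and no longer called. Without sEV-NORM gland 2 Igkv14-126 was only just called, at an unadjusted P of 0.0499 (edgeR). With the B cell markers as a covariate, as described below, it was at -2.09 and not called. Igkv10-96, with 67.9, 215 and 161 CPM against 174 and 35.7 CPM, overlapped between the groups (log2 fold change -0.49, SE 0.68), and so did Igkv5-39 (26.5, 123 and 54.1 CPM against 165 and 14.2 CPM, log2 fold change 0.41, SE 1.15). These P values measure only the spread between these glands.

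The count of lower segments depended on single glands. Without sEV-HYP gland 2 it was 4 lower and 2 higher (1.14% and 1.07% of all genes tested), and without sEV-NORM gland 2, the highest sEV-NORM gland for V segments, it was 8 lower and 0 higher (1.49% and 1.35%). The summed level of the 15 B cell markers overlapped between the groups, with 2661, 4107 and 1943 CPM in sEV-NORM and 2669 and 1444 CPM in sEV-HYP glands. Their median log2 fold change was -0.53, and 0 of 15 were called. With the mean log2 CPM of these markers as a covariate, an alternative chosen after seeing the data, 10 members were lower and 4 higher, beside 3.37% and 2.25% of all genes tested, and the median log2 fold change was -0.43. Whether B lineage content had a part in the segment results was not tested. Muscle content overlapped between sEV-CTRL and each of the other groups. The summed skeletal muscle level given above did not overlap between sEV-HYP and sEV-NORM glands, its markers had a median log2 fold change of 2.49 with 0 of 10 called, and its part in the segment results was not tested.

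Against sEV-CTRL, 14 of 81 members were lower in sEV-HYP glands at an unadjusted P under 0.05 (1.06% of all genes tested) and 1 was higher (1.39%). The members' median log2 fold change was -1.06, beside -0.02 for all genes, and 68 of 81 fitted values were below 0 (52.5% of all genes). In 9 of 81 members both sEV-HYP glands lay below all sEV-CTRL glands (6.08%), and in 1 they lay above (6.7%). Igkv8-18 is among the 14 and among the 9, but it passed the count limit only through sEV-CTRL gland 1. That gland held 62 of its 113 counts, so its selection favored a high sEV-CTRL group. With a limit of 200 counts, which leaves Igkv8-18 out, 13 of 70 members were lower and 1 was higher. edgeR's adjusted P called 0 members and 0 of all genes, and DESeq2 called 0 members with all 8 libraries (4 of all genes) and 1, Igkv1-88, on the groups compared alone (14 of all genes). This comparison shares the sEV-HYP libraries with the one against sEV-NORM, and its segments are likewise not independent of one another.

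Igkv6-20 had 3.35, 2.64 and 18.8 CPM in the sEV-CTRL glands and 1.15 and 1.39 CPM in the sEV-HYP glands (log2 fold change -2.70, SE 0.88), and Igkv4-63 had 3.45, 1.92 and 8.81 CPM against 1.42 and 0.375 CPM (-2.37, SE 0.78). In both segments sEV-CTRL gland 3 was the highest library and the groups did not overlap. Igkv1-88 had 9.29, 2.42 and 8.10 CPM in sEV-CTRL glands and lay below all of them in both sEV-HYP glands (-2.55, SE 0.86). Igkv6-23, the leader of sEV-CTRL gland 2, was called with overlapping groups, since sEV-CTRL gland 3 had 4.71 CPM and sEV-HYP gland 1 had 5.73 CPM (-3.68, SE 1.23). Igkv8-16 was the only segment called higher, with 2.39, 1.14 and 2.24 CPM in sEV-CTRL and 4.17 and 3.59 CPM in sEV-HYP glands (1.01, SE 0.40). Only 22.2% of its 50-base stretches are its own, most of the rest being shared with the annotated gene Gm43218, and 39.3% of those of Igkv6-20 are, so the counts of both are uncertain. edgeR's adjusted P was 1.00 for each of these 5 segments. Each of them also lost its call when 1 gland was left out. Without sEV-HYP gland 2 this held for Igkv4-63 (-1.75), Igkv1-88 (-2.32), Igkv6-23 (-3.02) and Igkv8-16 (1.10), and without sEV-HYP gland 1 for Igkv6-20 (-2.56) and Igkv8-16 (0.90). Igkv4-63 was also not called without sEV-CTRL gland 3 (-1.56), nor Igkv8-16 without sEV-CTRL gland 2 (0.74).

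Single glands moved this count as well. Without sEV-CTRL gland 2 it was 32 lower and 0 higher, beside 2.80% and 5.51% of all genes tested. Without sEV-HYP gland 2 it was 2 lower and 4 higher (1.16% and 1.01%), and without sEV-CTRL gland 1 it was 7 lower and 3 higher (0.923% and 1.47%), with a median over the members of -0.25. Igkv2-112 was among the lower segments (log2 fold change -7.41, SE 2.81) although 2 of the 3 sEV-CTRL glands were at the level of the sEV-HYP glands. With the B cell markers as a covariate, 8 members were lower and 5 higher, beside 2.95% and 1.96% of all genes, and the median was -0.59. The markers themselves had a median log2 fold change of -0.33, with 0 of 15 called. Skeletal muscle markers had a median of 1.05 with 0 of 10 called, their summed level overlapped between these groups, and their part was not tested.

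Between sEV-NORM and sEV-CTRL the segments did not move in a common direction. At an unadjusted P under 0.05, 4 of 81 members were higher in sEV-NORM glands (0.89% of all genes tested) and 4 were lower (0.734%), and the members' median was 0.18 on the log2 scale, with 36 of 81 fitted values below 0 (50.2% of all genes). In 0 members did all sEV-NORM glands lie above all sEV-CTRL glands (2.69% of all genes), and in 2 they lay below (2.17%). By adjusted P, 0 members were called by edgeR and 0 by either DESeq2 fit (2 of all genes with all 8 libraries and 3 on the groups compared alone). Several of the 8 called segments were ones with a single dominating gland: Igkv2-112 in sEV-CTRL gland 1, Igkv6-20 and Igkv2-137 in sEV-CTRL gland 3, Igkv5-45 in sEV-NORM gland 2 and Igkv3-4 in sEV-NORM gland 3.

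Igkv5-45 had 2.08, 0.274 and 0.274 CPM in sEV-CTRL and 1.85, 14.0 and 3.36 CPM in sEV-NORM glands (log2 fold change 2.86, SE 0.97), and Igkv3-4 had 6.91, 2.14 and 3.01 CPM against 13.3, 5.01 and 41.3 CPM (2.30, SE 0.91). Igkv9-120 had 18.7, 7.25 and 8.04 CPM against 13.3, 41.6 and 29.9 CPM (1.32, SE 0.46), and Igkv8-27 had 7.57, 3.10 and 3.34 CPM against 4.14, 14.7 and 15.7 CPM (1.30, SE 0.55). The groups overlapped in each of these 4 segments. All 4 were no longer called without sEV-CTRL gland 2 or without sEV-CTRL gland 3. Without sEV-NORM gland 2 this also held for Igkv5-45 (1.56), Igkv9-120 (0.93) and Igkv8-27, and without sEV-NORM gland 3 for Igkv3-4 (1.19) and Igkv8-27 (1.01). Of the lower ones, Igkv6-20 (-2.25, SE 0.73) and Igkv4-50 did not overlap, and Igkv4-50 had 6.50, 1.69 and 1.64 CPM in sEV-CTRL and 0.724, 1.60 and 0.851 CPM in sEV-NORM glands (-1.63, SE 0.60). Igkv6-20 was at -0.79 and not called without sEV-CTRL gland 3. Igkv4-50 was at -0.68 without sEV-CTRL gland 1, at -1.41 without sEV-NORM gland 1 and at -1.50 without sEV-NORM gland 3, in each case not called. Igkv2-137 (-2.44) was not called without sEV-CTRL gland 3 (-0.66), sEV-NORM gland 1 (-2.40) or sEV-NORM gland 3 (-2.21). Igkv2-112 (-6.82, SE 2.23) turned to 1.03 without sEV-CTRL gland 1, and the count of called segments was then 13 higher and 2 lower (1.52% and 1.68% of all genes). Without sEV-CTRL gland 2 it was 0 higher and 10 lower (3.47% and 2.28%), and without sEV-NORM gland 2 it was 3 higher and 6 lower (0.781% and 0.475%).

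**Figure D5:**
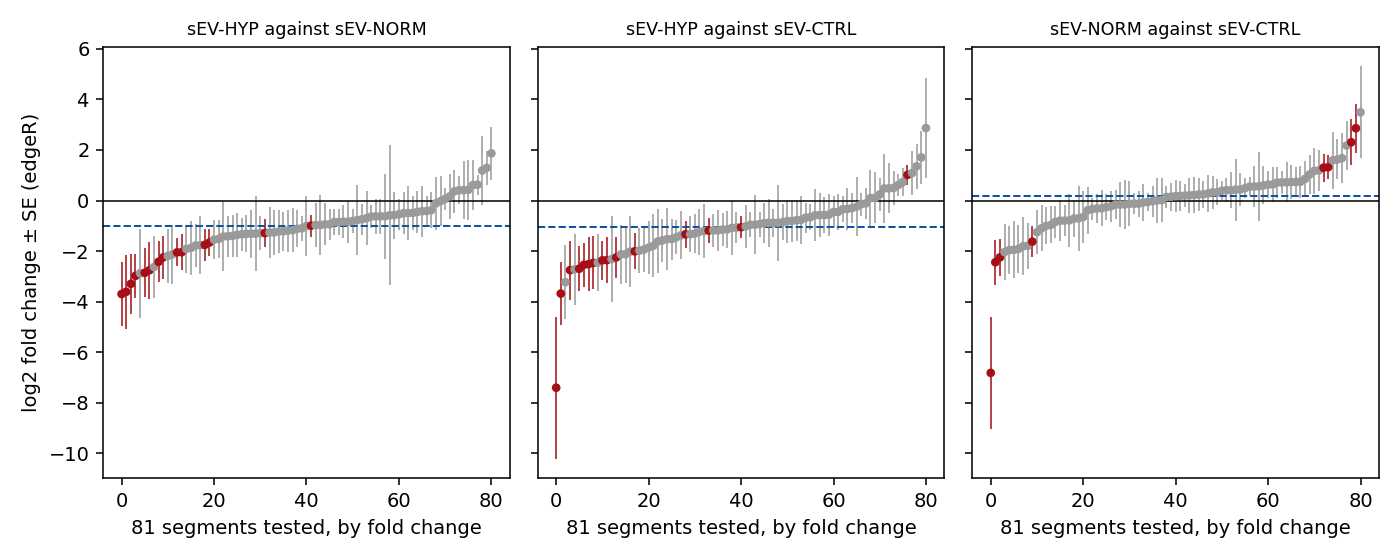
log2 fold change ± SE (edgeR) of the 81 segments tested, ordered by value, in each of the 3 comparisons; red marks an unadjusted P under 0.05, the black line 0 and the dashed line the members' median (-1.01, -1.06 and 0.18). Most points lie below 0 in both sEV-HYP comparisons and on both sides of 0 between sEV-NORM and sEV-CTRL.

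Segment use was also compared between pairs of libraries, as the sum over the members of the smaller of their 2 shares, which is 100% for identical use. Pairs of glands of the same group shared 55.4% to 75.8% (7 pairs, median 68.0%), and pairs of different groups 49.0% to 84.4% (21 pairs, median 66.9%), so glands of a group were not more alike by this measure than glands of different groups. The most alike pair was sEV-NORM gland 1 and sEV-HYP gland 2 (84.4%), and the least alike was sEV-CTRL gland 1 and sEV-HYP gland 1 (49.0%). The pair of sEV-HYP glands shared 55.4%. Pairs have glands in common, and no test was made.

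Other genes of the antibody pathway were set beside the segments. Of the 4 light chain constant genes tested, 0 were called in any comparison, with a log2 fold change of -0.93 (SE 0.74) for Igkc in sEV-HYP against sEV-NORM and of -1.32 (SE 0.75) against sEV-CTRL. The 8 joining segments checked were listed at 0 in every library, so V to J pairing was not seen in these counts. Of the 9 heavy chain constant and J chain genes, 2 were lower in sEV-HYP against sEV-NORM, Ighg2c and Igha (1.7% of all genes tested). Against sEV-CTRL 2 were lower, Ighg2b and Ighg2c (1.06%). These calls are unadjusted, and edgeR's adjusted P called 0 of all genes in both comparisons. Whether they depend on single glands was not examined. Ighg2c, an IgG constant gene, had 901, 290 and 385 CPM in sEV-CTRL, 204, 581 and 600 CPM in sEV-NORM, and 102 and 137 CPM in sEV-HYP glands. Both sEV-HYP glands were below all others, as they were below sEV-NORM in 10.5% and below sEV-CTRL in 6.08% of all genes. Ighg1, another IgG constant gene, had 3189, 1.46 and 72.9 CPM in sEV-CTRL, 74.1, 933 and 1017 CPM in sEV-NORM, and 1374 and 68.0 CPM in sEV-HYP glands. The gland with the most Ighg1 was also the one with the highest summed V level in sEV-CTRL and sEV-HYP, but not in sEV-NORM.

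Few markers of antibody-secreting and of other cells passed the test. Of 14 genes listed for plasma cells, 0 were called in sEV-HYP against sEV-NORM and 1 against sEV-CTRL (Sdc1, higher). Their summed level was 746 to 1575 CPM in sEV-CTRL, 890 to 1102 CPM in sEV-NORM, and 855 and 1016 CPM in sEV-HYP glands. sEV-CTRL gland 1 was highest both in this sum and in V segments. Within sEV-HYP the order was opposite, since gland 2 had the higher sum but less V (388 against 1326 CPM). The list therefore does not measure plasma cell content here, and the cells that carried Sdc1 are not known. Of 8 germinal center genes, 1 was called, Fas, lower in sEV-HYP against sEV-CTRL. Of 8 genes listed for lymph node stroma, Glycam1 was lower in sEV-HYP against sEV-NORM and Lyve1 higher in sEV-NORM against sEV-CTRL. The 8 genes summed to 1275 to 1893 CPM in sEV-CTRL, 1796 to 2620 CPM in sEV-NORM, and 1730 and 1175 CPM in sEV-HYP glands. In RNA of whole glands such calls do not show that the transcripts came from a lymph node. Of the 4 precursor B cell genes tested, Rag1 was higher in sEV-NORM against sEV-CTRL, at no more than 0.621 CPM in any library. Of 53 markers of luminal and basal epithelium, white adipocytes, skeletal muscle, T cells and macrophages, Cnn1 was called higher in both sEV-HYP comparisons and Oxtr in that against sEV-CTRL, both basal epithelial genes, and no other was called. The part of lymph node or plasma cell content in the segment results was not tested.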

How the data were processed

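RNA from 8 mammary glands was analyzed, 3 each for sEV-CTRL and sEV-NORM and 2 for sEV-HYP, grouped by the sample labels. The authors aligned reads with STAR to mm10 (GRCm38) and estimated gene counts with RSEM 1.2.12 on Ensembl annotation, and the deposited table holds raw counts, all of them whole. How the estimates were rounded, and whether counting used strand, is not given in the sources used here. RSEM divides reads that match several genes by a model, which can split counts among similar V segments. Symbols, positions and sequences came from GENCODE M21. The members and lists were chosen with earlier results of these data known.

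edgeR 4.0.16 (under R 4.3.3) gave the tests, by its quasi-likelihood F-test in 1 model of the 3 groups with 5 residual degrees of freedom. Library sizes were scaled by TMM (0.975 to 1.02), filterByExpr used a minimum of 10 counts, and P values were adjusted by Benjamini-Hochberg over 17858 genes. Data were simulated with the sizes of the 3 groups, and genes were changed in sEV-HYP and tested against sEV-NORM. Of those changed by 1 on the log2 scale, 77.5% passed an unadjusted P of 0.05, and 0% passed after adjustment. At 2 these were 97.0% and 75.0%. The changed genes were drawn from genes of all kinds, whose replicates spread less than those of the segments. The rates therefore do not apply to the segments, for which none were simulated. CPM used TMM library sizes and no prior count, and shares within a library used raw counts. Coding sequences were aligned with Biopython 1.88. No pair of libraries was a duplicate within sampling noise. Segments were named by rule: the 12 with the most counts, the 8 with the highest share in 1 library, the lambda segments, each library's leader, those at the limit, and up to 4 per direction with the lowest P in each comparison. Igkv14-126 in the comparison with sEV-NORM and Ighg1 were singled out after their values were seen. Alternatives were DESeq2 1.42.0 or its size factors, no filter, only the groups compared, the replicate number as a block, each library left out, member limits of 40 or 200 counts, and, for the effective number, other indices and gene sets.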

Additional observations from a re-analysis of the deposited data

How the results depend on the processing

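The number of segments with an unadjusted P under 0.05 changed with the test and with single glands. For sEV-HYP against sEV-NORM it was 14 (all lower), 23 with DESeq2 on all 8 libraries (22 lower), 32 with DESeq2 on only the groups compared (all lower), 32 without a filter on low counts (30 lower), and 6 to 21 with each library left out. For sEV-HYP against sEV-CTRL it was 15, then 33 without the filter (31 lower) and 6 to 32 with a library left out (2 lower and 4 higher without sEV-HYP gland 2), and for sEV-NORM against sEV-CTRL it was 8, then 18 without the filter and 6 to 15 with a library left out (13 higher and 2 lower without sEV-CTRL gland 1, 0 higher and 10 lower without sEV-CTRL gland 2). With a sEV-HYP gland left out, the lone gland is assumed to vary like the other groups. The cause of these shifts was not tested. Replicate numbers were not shown to pair the glands, since the correlations of same-numbered glands ran from -0.416 to 0.369, and with the replicate number as a block the counts were 13, 10 and 5. Igkv2-112 in sEV-NORM against sEV-CTRL reversed from -6.82 to 1.03 without sEV-CTRL gland 1 (-7.41 to 1.03 with each library left out), and of 253 values of named segments under the alternatives, 216 kept their direction and an unadjusted P under 0.05, and 36 kept only the direction. The count of dominated segments was 14 to 22 with a library left out. The median effective number was 20.1, and 34.9 as the exponential of the Shannon entropy, an index that weights minor segments more by construction. With V exons at least 95% identical merged it was 15.8. Depth limits the segments near 80 counts, for which a library with 0 counts allows up to 3, and the design of 2 against 3 glands limits every comparison.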
